A study of Homo sapiens with 12 samples.

Results

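The nuclear genes for subunits of the mitochondrial respiratory chain and ATP synthase were followed through an experiment in which human neural progenitor cells overexpressed microRNA-10. Members were taken by gene name: NDUFA, NDUFB, NDUFC, NDUFS and NDUFV genes, SDHA to SDHD, UQCR genes, COX4 to COX8 genes and ATP5 genes, without NDUFAF assembly factors and numbered pseudogenes. This gave 92 of 25718 genes listed. Of these, 85 encode subunits, 39 in complex I, 4 in complex II, 9 in complex III, 17 in complex IV and 16 in complex V. The other 7 names met the rule but are not subunits. They are the noncoding RNAs NDUFA6-AS1, NDUFB2-AS1 and NDUFV2-AS1, the readthrough genes ATP5J2-PTCD1 and NDUFC2-KCTD14, and ATP5S and ATP5SL. NDUFA6-AS1, now named NDUFA6-DT, lies on the other strand beside NDUFA6 and does not overlap it.

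The RNA came from 12 cultures, in 4 groups of 3, of the human embryonic stem cell line H9, which is long established. All 12 had been transduced at a multiplicity of infection of 50 with a lentivirus carrying a Tet-regulated cassette for a microRNA and GFP, either miR-10a or miR-10b, and patterned to ventral midbrain with Sonic hedgehog at 200 ng/ml. For each vector, 1 group received doxycycline from day 11 to day 14 and 1 group did not (the control), and all were harvested on day 14. No GFP-only vector given doxycycline is among these samples, so effects of doxycycline itself and of miR-10 cannot be told apart here. Doxycycline belongs to the tetracyclines, antibiotics that can also slow the mitochondrial ribosome. The stem cells were kept on mouse feeder cells before differentiation, and the labels do not say whether replicates came from separate inductions, so the p-values measure the spread between these samples only.

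The respiratory chain sits in the inner mitochondrial membrane. Complex I (NADH dehydrogenase) and complex II (succinate dehydrogenase) pass electrons to ubiquinone, complex III passes them to cytochrome c, and complex IV (cytochrome c oxidase) passes them to oxygen. Complex V, the ATP synthase, makes ATP from the proton gradient that complexes I, III and IV build. Most subunits are encoded in the nucleus and imported, while the catalytic core of complex IV and parts of complexes I, III and V are encoded in mitochondrial DNA. Transcripts of mitochondrial DNA were not analysed here.

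The libraries held 10545487 to 14165426 counts, and every control library was larger than every doxycycline library of its vector. At these totals, 3 counts correspond to 0.212 to 0.284 CPM, the unit in which counts scaled to the library's total are given. The miR-10a precursor gene MIR10A stood at 711 to 731 CPM in the miR-10a doxycycline samples and 0.641 to 1.37 CPM in their controls, and MIR10B at 2541 to 2662 against 2.89 to 4.45 CPM, as the labels state. Progenitor markers (SOX1, SOX2, NES, PAX6, MSI1 and SOX9) summed to 6031 to 6999 CPM, the 7 ventral midbrain and floor plate markers to 662 to 773 CPM, and neuron markers summed to 14.7 to 18.4 CPM. Most of the midbrain sum was SHH (586 CPM) and EN1 (100.2 CPM), FOXA2, LMX1A and CORIN averaged 4.94 to 11.9 CPM, and OTX2 (0.506 CPM) and LMX1B (0 in all 12) have several transcripts, as does PAX6 (0.0126 CPM). Among the markers of other cells, OCT4 (POU5F1) averaged under 1 count and NANOG had none, both with several transcripts, and DPPA4, with 1 transcript, averaged 126 CPM. Replicate 2 of the miR-10b doxycycline group stood apart: the chi-square of its counts against its 2 fellow replicates was 3.16 and 4.09 per degree of freedom, against 1.23 to 1.93 for all other replicate pairs. Results for miR-10b are therefore also given without it.

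How well a member was measured depended first on how many transcripts the annotation listed for it. The 49 subunit genes with 1 listed transcript had a median level of 119.7 CPM per kb of transcript, and the 36 with several had a median of 0.325 CPM per kb and none above 23.8. Reads shared by several transcripts appear to have been left uncounted, so a low value in the second class does not show low expression. Core genes fell into it: NDUFS1, the largest complex I subunit, averaged 4.83 counts, NDUFV1, which carries the FMN, 3.58, the membrane anchors of complex II SDHC and SDHD 0.0833 and 1.17, and the ATP synthase α subunit ATP5A1 21.5. Levels are given per kb only when genes are compared, and all tests compare 1 gene with itself.

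**Figure D1:**
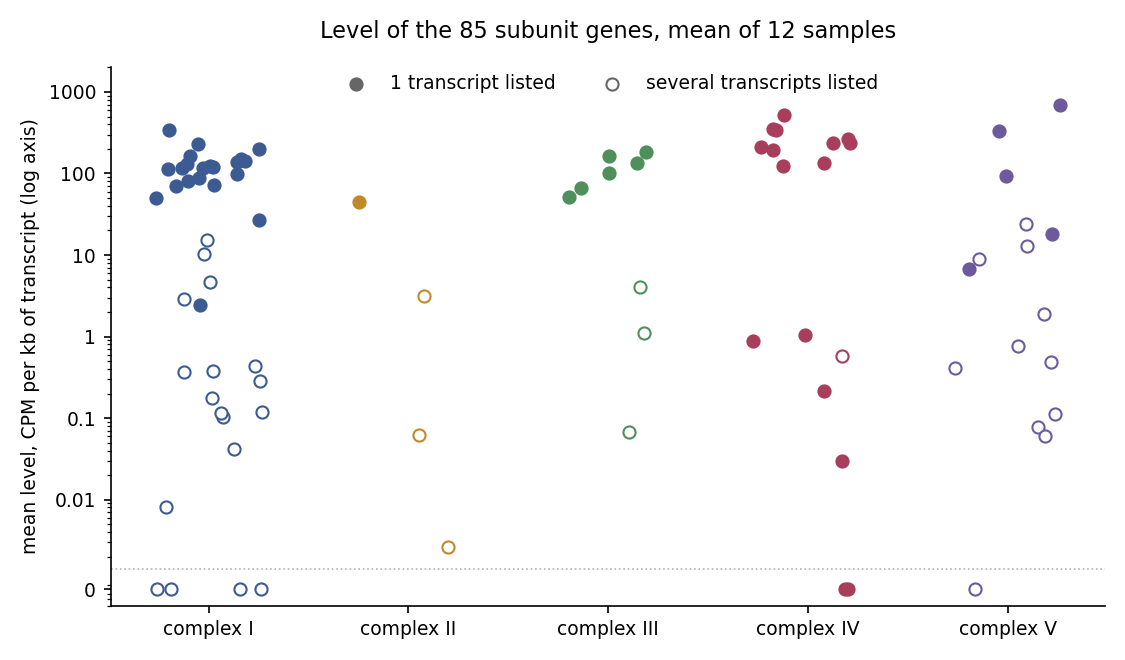
Mean level of the 85 subunit genes over 12 samples, in CPM per kb of transcript on a log axis, by complex, with genes at 0 drawn below the dotted line. Filled points are genes with 1 listed transcript and open points are genes with several. The open points all lie at or below 23.8 CPM per kb, while most filled points lie near or above 100.

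A mean above 10 counts was needed for testing. It was passed by 63 members, 60 of them subunits, out of 11451 genes tested in all. The 29 others were ATP5C1, ATP5G1, ATP5J, ATP5J2, ATP5J2-PTCD1, ATP5L, ATP5SL, COX4I2, COX6A2, COX7A1, COX7A2, COX7B2, COX8C, NDUFA2, NDUFB3, NDUFB5, NDUFB6, NDUFB9, NDUFB11, NDUFC1, NDUFC2, NDUFC2-KCTD14, NDUFS1, NDUFS5, NDUFV1, NDUFV2-AS1, SDHC, SDHD and UQCRB. Of these, 23 have several transcripts. The 6 with 1 transcript were the readthrough gene ATP5J2-PTCD1 and the complex IV isoforms COX4I2, COX6A2, COX7A1, COX7B2 and COX8C.

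The 40 members above 500 counts on average all have 1 transcript and cover each complex: 20 in complex I, 1 in complex II, 6 in complex III, 10 in complex IV and 3 in complex V. Per kb they spanned 27.1 to 683 CPM. ATP5B, the catalytic β subunit of the ATP synthase, was highest at 683, followed by COX7C, a small membrane subunit of complex IV, at 520 and COX4I1, its largest nuclear subunit, at 348. NDUFA10, an accessory subunit of complex I, was lowest at 27.1, and SDHB, the iron-sulphur subunit of complex II, stood at 44.7. Together the 92 members took 0.634 to 0.653% of all counts in the miR-10a doxycycline samples and 0.622 to 0.643% in their controls. The shares were 0.616 to 0.647% with miR-10b and doxycycline and 0.631 to 0.659% without, so the groups of each vector overlapped.

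Several complex IV subunits exist as a widespread and a tissue-restricted isoform, and these cells carried the widespread ones. COX6B1 stood at 238.5 ± 8.63 CPM per kb (SD, n = 12) and its testis isoform COX6B2 at 1.05 ± 0.654. COX8A stood at 339.6 ± 21.9 against 0.214 ± 0.147 for COX8C. COX4I1 had 42475 counts over the 12 libraries and COX4I2, the oxygen-responsive isoform known from lung, had 3. The muscle isoform COX6A2 and the testis isoform COX7B2 had no count in any of the 12 libraries, which allows up to 0.212 to 0.284 CPM per library. The counterparts COX6A1 and COX7B stood at 267 ± 9.98 and 236.5 ± 8.90 CPM per kb. COX7A1, the heart and muscle isoform, averaged 0.677 CPM. Its liver-type partner COX7A2 has 2 transcripts and averaged 0.439 CPM, so that pair cannot be ordered, while the related supercomplex factor COX7A2L stood at 133 CPM per kb. NDUFA4, named for complex I but now counted as a complex IV subunit, was at 80.5 ± 3.58 and its hypoxia-inducible paralogue NDUFA4L2 at 2.41 ± 0.396 CPM per kb. Of the 3 genes for the identical c subunit of the ATP synthase, all with several transcripts, ATP5G2 was at 1.89, ATP5G3 at 0.486 and ATP5G1 at 0.111 CPM per kb.

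For some members, counts cannot be assigned with certainty. UQCRHL, an intronless copy of UQCRH, averaged 892 counts against 38.4 for UQCRH, which has 3 transcripts, and ATP5L2 averaged 176 against 1 for ATP5L, of which it is a copy. Exons of 30 members, 18 of them tested, overlap exons of another listed gene in the GRCh37 annotation. Among the members called in any comparison these are COX4I1 with EMC8, NDUFA3 with TFPT and COX7C with the microRNA gene MIR3607, and the counting is not stated to have used strand.

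With miR-10a, none of the 63 members passed an adjusted p of 0.05, against 1.21% of all genes tested (139 of 11451), and 4 members (6.35%) had an unadjusted p under 0.05, against 11.2% of all genes. DESeq2 also called none, with 2 members at an unadjusted p under 0.05. The median log2 fold change of the members was 0.0087, beside 0.010 over all genes tested. For the 40 members above 500 counts the 95% interval of the change lay within a 1.2-fold change in either direction for all 40, beside 96.4% of all genes above 500 counts, so these intervals held no larger change. The 4 members were UQCR11, a small complex III subunit, with a log2 fold change of 0.15 ± 0.052 (SE, adjusted p = 0.22), COX8A with 0.12 ± 0.045 (adjusted p = 0.26), NDUFB7, an accessory complex I subunit, with 0.12 ± 0.054 (adjusted p = 0.35) and COX7A2L with 0.083 ± 0.039 (adjusted p = 0.42). CPM values of doxycycline and control samples did not overlap for 3 members, COX7A2L, NDUFB7 and NDUFS8, all higher with doxycycline, or 4.76% of members against 18.2% of all genes.

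With miR-10b, 6 of the 63 members changed, or 9.52%, against 15.3% of all genes tested (1756 of 11451). Of these, 3 members rose, against 8.18% of all genes, and 3 fell, against 7.15%. NDUFA3, COX6B2 and the noncoding RNA NDUFA6-AS1 rose, and COX4I1, COX7C and NDUFAB1 fell. Apart from COX6B2 the subunit genes moved by less than 1.2-fold. The median over the members was 0.00077 on the log2 scale, beside 0.021 over all genes. At an unadjusted p under 0.05 there were 16 members (25.4%), beside 27.6% of all genes. Groups did not overlap for 14 members (22.2%), beside 28.7% of all genes.

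COX4I1, the widespread isoform of the largest nuclear subunit of complex IV, stood at 277.5, 281.6 and 259.6 CPM in the 3 miR-10b doxycycline samples and at 296.4, 295.9 and 303 CPM in their controls. All doxycycline values lay below all control values. The group means were 273 ± 11.7 and 298.5 ± 4.13 CPM (SD, n = 3), a log2 fold change of -0.13 ± 0.036 (SE, adjusted p = 0.0096). Its overlapping neighbour EMC8 averaged 75.5 counts and gave -0.17 ± 0.16 (adjusted p = 0.53). Leaving out each library in turn kept the call of COX4I1 in 10 of 12 fits, and it was lost without doxycycline replicate 3 or control replicate 3.

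COX7C gave 209, 178.5 and 211 CPM with doxycycline and 208, 216 and 242 CPM without. Replicate 2 with doxycycline was lowest, and the other values of both groups overlapped. The log2 fold change was -0.15 ± 0.049 (adjusted p = 0.029), and without that replicate it was -0.080 with an adjusted p of 0.30. The call was also lost without control replicate 3, with DESeq2 (adjusted p = 0.11) and in a fit of the miR-10b groups alone (adjusted p = 0.069). NDUFAB1, the mitochondrial acyl carrier protein that is also a subunit of complex I, gave 89.2, 75.3 and 91.6 CPM with doxycycline and 92.2, 93.0 and 99.3 CPM without. The groups did not overlap, but replicate 2 was again far below its fellows. The log2 fold change of -0.15 ± 0.053 (adjusted p = 0.046) was called in only 2 of the 12 fits with 1 library left out, and was -0.069 with an adjusted p of 0.39 without replicate 2.

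NDUFA3, a small accessory subunit of the complex I membrane arm, gave 80.3, 87.3 and 70.8 CPM with doxycycline and 66.4, 68.3 and 71.2 CPM without. Doxycycline replicate 3 lay inside the control range and replicate 2 was highest. The log2 fold change was 0.21 ± 0.056 (adjusted p = 0.0072), and without replicate 2 it was 0.14 with an adjusted p of 0.081. TFPT, whose exons overlap those of NDUFA3, averaged 414 counts and gave 0.12 ± 0.075 (adjusted p = 0.30). NDUFA6-AS1 rose from 9.41 ± 1.79 to 12.2 ± 0.388 CPM (SD, n = 3), a log2 fold change of 0.38 ± 0.12 (adjusted p = 0.026), called in 9 of the 12 fits with 1 library left out. It was lost without doxycycline replicate 1 or without control replicate 2 or 3, where the adjusted p reached 0.18, and with DESeq2 (adjusted p = 0.082). NDUFA6 itself, an accessory complex I subunit with 2073 counts on average, was not called.

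COX6B2 was the member with the largest change. It is the testis isoform of COX6B, a small subunit on the intermembrane side of complex IV at the contact of the dimer. Its counts were 35, 49 and 35 in the miR-10b doxycycline samples and 15, 15 and 17 in their controls, and 8, 7 and 21 with miR-10a and doxycycline against 15, 15 and 21 in those controls. All 3 miR-10b doxycycline samples lay above all 9 others, whose mean of 14.9 counts passed the minimum for testing on its own. The rise was 2.79-fold, from 1.19 ± 0.083 to 3.35 ± 0.737 CPM (SD, n = 3), a log2 fold change of 1.48 ± 0.27 (adjusted p = 1.2e-04), and it was called in all 12 fits with 1 library left out (1.29 to 1.57). COX6B1, by far the more abundant isoform, gave a log2 fold change of 0.043 ± 0.041 (adjusted p = 0.55). The COX6B2 counts are low, and DESeq2 returned a log2 fold change of the same sign but no adjusted p for this gene.

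**Figure D2:**
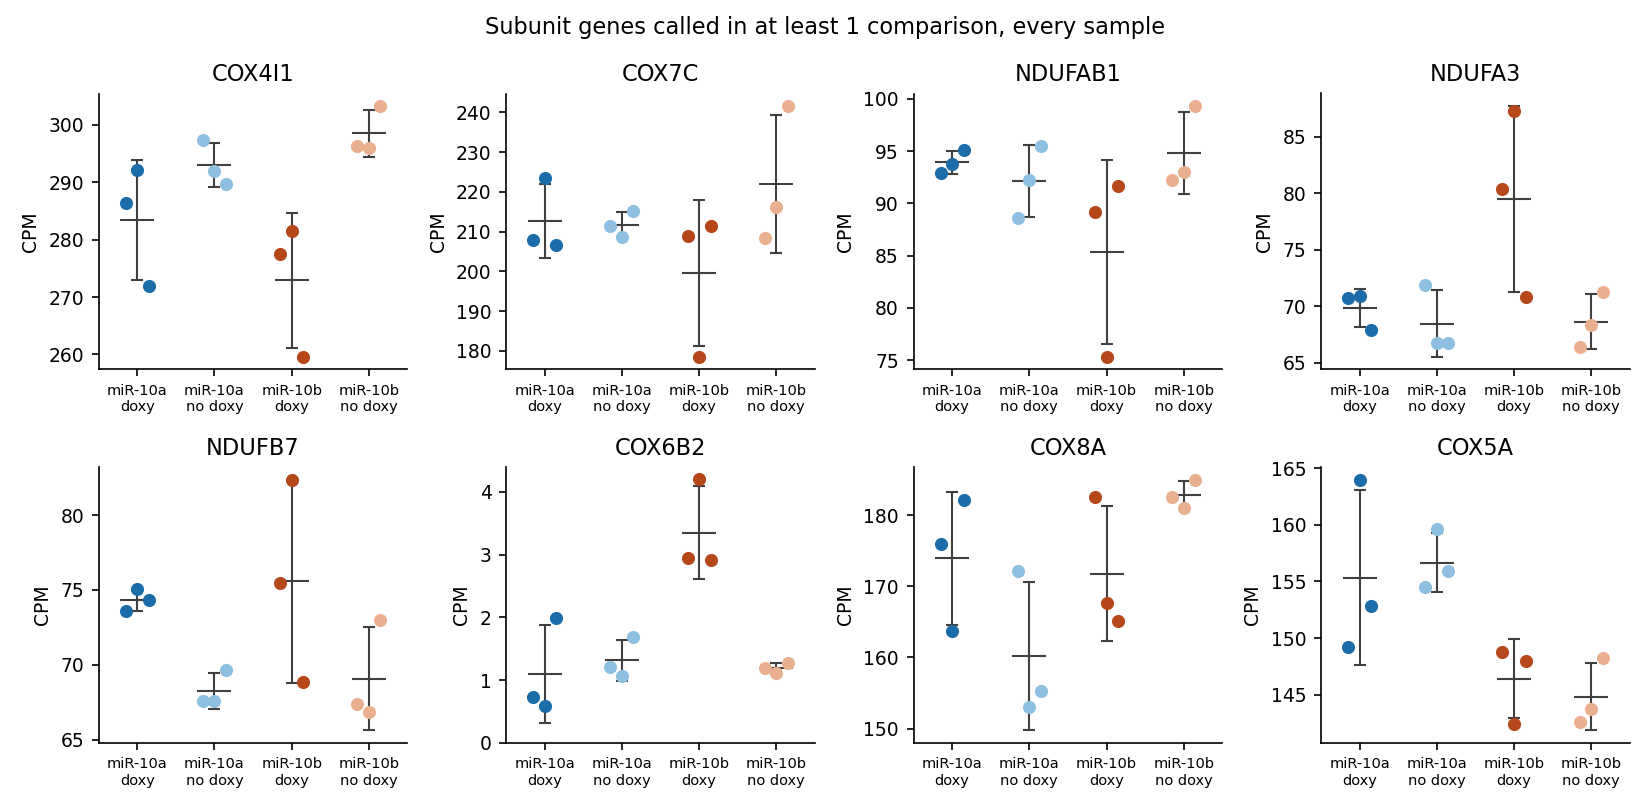
CPM of the 8 subunit genes called in at least 1 comparison, in every sample. Points are samples, horizontal bars the mean of 3 and vertical bars the SD. Axes other than that of COX6B2 do not start at 0. The 3 miR-10b doxycycline samples of COX6B2 lie between 2.91 and 4.20 CPM, above the other 9, while the other genes shift by less than 1.2-fold.

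Among the members that did not pass, NDUFS7, a core subunit that holds the last iron-sulphur cluster of complex I, came closest with a log2 fold change of 0.15 ± 0.054 (adjusted p = 0.052), followed by SDHB with 0.16 ± 0.059 (adjusted p = 0.069). The 95% interval lay within 1.2-fold for 37 of the 40 members above 500 counts, or 92.5%, beside 84.0% of all genes above 500 counts. Markers of other cells moved with this comparison. The 4 mesenchyme markers summed to 84.0 to 101.5 CPM with doxycycline and 118 to 139 CPM without, with COL1A1 lower by the test, and TTR, the 1 endoderm marker above 10 counts, was lower as well. CORIN, of the floor plate, was also lower (-0.77 ± 0.090), as was NES (-0.14 ± 0.027), and MSI1 was higher (0.10 ± 0.033). CORIN was the only call among the 5 midbrain and floor plate markers tested, whose log2 fold changes had a median of 0.052 and reached 0.27. The other endoderm markers SOX17 and AFP averaged 0.0833 and 0.500 counts. The part of these markers' cells in the miR-10b results was not tested, and in bulk RNA fewer cells of a type and less RNA per cell cannot be told apart.

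Most of the catalytic and structural core lay close to 0 in both comparisons. In complex I, the core subunits NDUFS3, NDUFS7, NDUFS8 and NDUFV2 gave log2 fold changes of -0.036, 0.00062, 0.087 and -0.030 with miR-10a. With miR-10b the values for NDUFS3, NDUFS8 and NDUFV2 were -0.055, 0.0029 and -0.049. In complex II, SDHA, the flavoprotein, gave 0.0010 ± 0.12 with miR-10a and -0.11 ± 0.12 with miR-10b from 108 counts on average. In complex III, the core proteins UQCRC1 and UQCRC2 gave -0.018 ± 0.033 and 0.045 ± 0.036 with miR-10a and -0.025 ± 0.033 and 0.020 ± 0.036 with miR-10b. The Rieske protein UQCRFS1 gave 0.0087 ± 0.043 and -0.0068 ± 0.043. In complex IV, COX5B, which binds zinc, gave -0.0033 ± 0.045 and -0.023 ± 0.045, COX6A1 0.043 ± 0.041 and -0.047 ± 0.041, and COX6C 0.049 ± 0.057 and -0.11 ± 0.056. In complex V, ATP5B, with the most counts of any member, gave 0.026 ± 0.032 with miR-10a and -0.038 ± 0.032 with miR-10b. None of these passed the test.

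**Figure D3:**
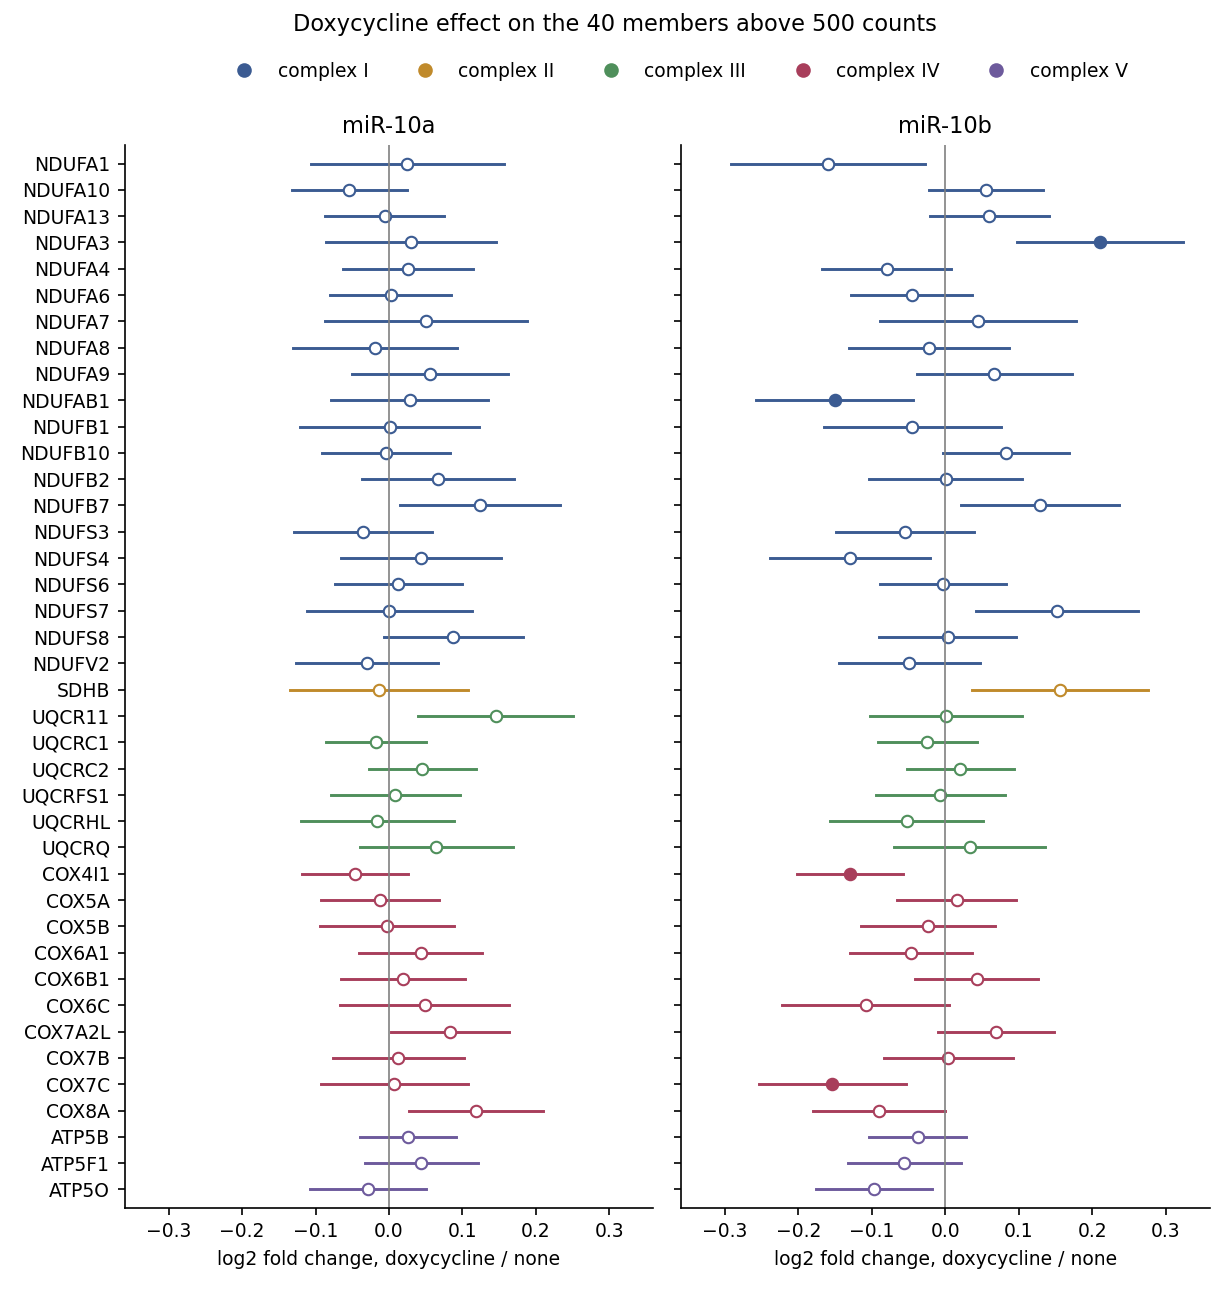
Log2 fold change of doxycycline over control for the 40 members above 500 counts, with miR-10a on the left and miR-10b on the right. Bars are 95% intervals from the edgeR fit, colours give the complex and filled points passed an adjusted p of 0.05. With miR-10a no point is filled, and with miR-10b the filled points are NDUFA3, NDUFAB1, COX4I1 and COX7C.

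By complex, the median log2 fold changes with miR-10b were -0.0014 over the 28 tested subunits of complex I, 0.024 over the 2 of complex II, -0.0030 over the 8 of complex III, -0.023 over the 11 of complex IV and -0.038 over the 11 of complex V. With miR-10a they were 0.019, -0.0062, 0.0036, 0.013 and 0.044. No complex had more than 2 subunits called in 1 direction. With miR-10b, 2 of the 28 tested subunits of complex I and 3 of the 11 of complex IV were called, against 15.3% of all genes tested. The complexes were not tested against each other.

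Averaged over both vectors, 3 members passed (4.76%), against 13.9% of all genes tested. NDUFB7 and NDUFA3 rose, 3.17% of members against 7.67% of all genes, and COX4I1 fell, 1.59% against 6.22%. The log2 fold changes were 0.13 ± 0.038 for NDUFB7 (adjusted p = 0.021), 0.12 ± 0.040 for NDUFA3 (adjusted p = 0.039) and -0.088 ± 0.025 for COX4I1 (adjusted p = 0.015). NDUFB7 gave 73.6, 75.1 and 74.3 CPM with miR-10a and doxycycline against 67.6, 67.6 and 69.6 CPM, and 75.5, 82.4 and 68.8 CPM with miR-10b and doxycycline against 67.4, 66.8 and 73.0 CPM. The miR-10a groups did not overlap and the miR-10b groups did. With 1 library left out, the average call held in 11 of 12 fits for COX4I1 (lost without miR-10a doxycycline replicate 3), in 8 for NDUFB7 and in 4 for NDUFA3. Without replicate 2 of the miR-10b doxycycline group, NDUFB7 and NDUFA3 lost their calls. DESeq2 called COX4I1 alone, and TMM factors left NDUFA3 out with an adjusted p of 0.068.

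The doxycycline effects of the vectors differed for 1 member, COX6B2 (1.59%, against 1.96% of all genes tested). Its log2 fold change was 1.76 ± 0.44 larger with miR-10b than with miR-10a (95% interval 0.862 to 2.67, adjusted p = 0.025), and with miR-10a alone it was -0.28 ± 0.35. The call of this difference held in 6 of the 12 fits with 1 library left out, where the adjusted p ranged from 0.0014 to 0.12. It was lost without any 1 of the 3 miR-10b controls, without miR-10a doxycycline replicate 1 or 2, and without miR-10a control replicate 3. The other 5 members called with miR-10b were not shown to differ between the vectors. The differences were -0.083 ± 0.050 for COX4I1 (adjusted p = 0.51), -0.16 ± 0.070 for COX7C (adjusted p = 0.29), -0.18 ± 0.074 for NDUFAB1 (adjusted p = 0.26), 0.18 ± 0.080 for NDUFA3 (adjusted p = 0.30) and 0.46 ± 0.17 for NDUFA6-AS1 (adjusted p = 0.20).

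The controls of the vectors, also harvested on day 14, were compared to see how far the cultures differed without doxycycline. Uninduced miR-10b cells differed from uninduced miR-10a cells in 2 members (3.17%), against 14.1% of all genes. Cell type markers moved in the same comparison. The mesenchyme markers COL1A1 and LUM were higher in the miR-10b controls (log2 differences of 1.16 ± 0.067 and 1.07 ± 0.090), as were TTR (1.33 ± 0.14) and the floor plate markers CORIN (1.61 ± 0.10), LMX1A (1.01 ± 0.17) and SHH (0.16 ± 0.031). COL1A2, the other mesenchyme marker tested, went the other way (-0.22) and was not called. SOX1 was lower (-1.24 ± 0.063), as was DPPA4 (-0.43 ± 0.044), while SOX2 (0.13 ± 0.030) and NES (0.17 ± 0.027) were higher, and the part of these differences in the members' values was not tested. COX8A, the widespread isoform of the smallest complex IV subunit, was at 182.5, 181.0 and 185 CPM in the miR-10b controls and at 172, 153 and 155 CPM in the miR-10a controls. The groups did not overlap, and the log2 difference was 0.19 ± 0.044 (adjusted p = 0.0018). COX5A, a matrix-side subunit of complex IV, was at 143, 144 and 148 against 154.5, 159.6 and 156 CPM, a log2 difference of -0.11 ± 0.039 (adjusted p = 0.046). The call of COX8A held with any 1 library left out, and that of COX5A held in 4 of 12 fits. The vector and the set of cultures that carried it cannot be told apart.

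Replicate 2 of the miR-10b doxycycline group also stood apart in the members themselves. The SD of the log2 deviations of the 40 members from their 12-sample means was 0.128 in that library and 0.0429 to 0.0708 in the other 11. Its median deviation was -0.022, so members were spread in both directions rather than shifted. Deviations in that library rose with the GC content of the transcript (r = 0.602 over 40 members, r = 0.372 over 4248 genes above 500 counts), a description across genes that share a library and are not independent. In the other libraries r over the members lay between -0.435 and 0.355. The GC content came from the GENCODE transcript nearest in length, which was within 100 bases for 31 of the 40. NDUFA3 (59.9% GC) and NDUFB7 (64.9% GC) were highest in that library within their group, and COX7C (42.3% GC) and NDUFAB1 (48.4% GC) were lowest. Over the 40 members, r between GC content and the miR-10b fold change was 0.457, and 0.200 without that library. With the miR-10a fold change, r over the 40 members was 0.184. Over the 4248 genes, r was 0.201 with the miR-10b fold change and 0.288 with that of miR-10a, so a trend with GC content was not particular to miR-10b. The part of base composition in the calls was not tested.

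**Figure D4:**
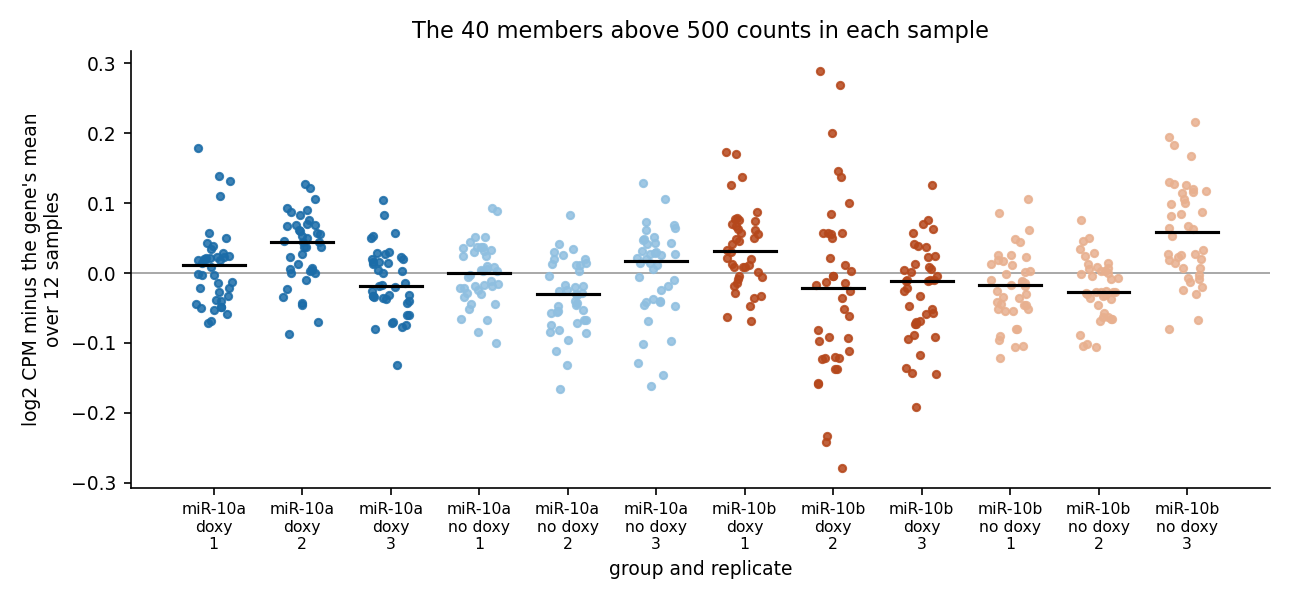
Log2 CPM of the 40 members above 500 counts minus each gene's mean over 12 samples, by sample. Points are genes and black bars medians. Replicate 2 of miR-10b with doxycycline spans -0.279 to 0.290, wider than the other 11 samples.

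**Figure D5:**
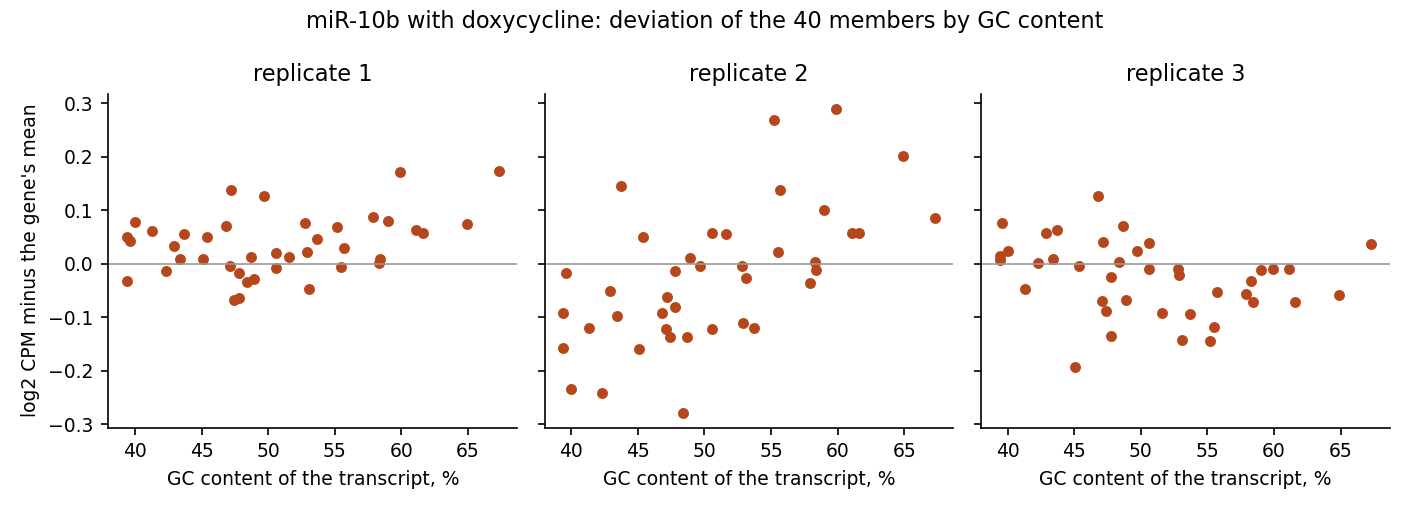
The same deviations for the 3 miR-10b doxycycline samples against the GC content of each gene's transcript, in percent. Each point is 1 of the 40 members. In replicate 2 the points rise with GC content (r = 0.602), and r was 0.355 in replicate 1 and -0.273 in replicate 3.

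The other genes of the pathway gave few calls with doxycycline. Over all genes tested, 1.21% were called with miR-10a, 15.3% with miR-10b, 13.9% over both vectors and 14.1% between the controls. Of 5 subunits and regulators that the name rule leaves out (CYC1, CYCS, USMG5, C14orf2 and ATPIF1), 4 were tested, and ATPIF1, the inhibitor of ATP hydrolysis by the synthase, rose with miR-10b (0.23 ± 0.062, adjusted p = 0.0087). ATPIF1 was the only call among these 4 with miR-10b and also over both vectors, where it rose as well. Of 36 assembly factors tested, 1 rose and 1 fell with miR-10b, where 15.3% of all genes were called. None passed with miR-10a, COA1 (-0.14 ± 0.044, adjusted p = 0.026) and COA7 (-0.14 ± 0.043, adjusted p = 0.021) fell over both vectors, and LRPPRC, which stabilises mitochondrial mRNA, was lower in uninduced miR-10b than in uninduced miR-10a cells (-0.16 ± 0.034, adjusted p = 8.7e-04). UQCC3, a complex III assembly factor, rose by 0.23 ± 0.066 (adjusted p = 0.015), and NDUFAF1, a complex I assembly factor with 11.4 counts on average, fell (-0.96 ± 0.33, adjusted p = 0.044). Of 19 listed regulators of mitochondrial gene expression, 8 were tested, namely GABPB2, PPARGC1A, YY1, TFB1M, TFB2M, POLRMT, TEFM and POLG2. NRF1, GABPA, ESRRA and TFAM were not tested. None of the 8 passed with either vector, and their medians were 0.024 with miR-10a and -0.048 with miR-10b. Of 15 tested genes of mitochondrial protein folding and stress, none passed with miR-10a and PHGDH, the entry enzyme of serine synthesis, fell with miR-10b (-0.13 ± 0.032, adjusted p = 0.0057). It was the only call among the 15 with miR-10b and also over both vectors, where it fell as well. Between the controls, 3 of the 15 were called, all lower in the miR-10b cells. PHGDH was also lower in uninduced miR-10b than in uninduced miR-10a cells (-0.17 ± 0.032, adjusted p = 1.3e-04), as were ATF4, a transcription factor of the stress response (-0.37 ± 0.12, adjusted p = 0.034), and HSPA9, a mitochondrial chaperone (-0.090 ± 0.031, adjusted p = 0.047).

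Because the vectors express a microRNA, matches to the seed of miR-10a, which its family member miR-10b (hsa-miR-10b-5p) shares, were searched in the members' 3′UTRs. The seed (bases 2 to 8, in capitals) pairs with the target, and the mature sequence is shown to make the sites readable. RefSeq places it at chr17:48579904-48579926 on the minus strand of GRCh38.p14.
hsa-miR-10a-5p: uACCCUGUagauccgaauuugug
An 8mer match is ACAGGGTA and a 7mer match ACAGGGT. In the longest 3′UTR of each gene in GENCODE (GRCh37), 2 of 60 tested subunit genes held an 8mer (3.33%) and 8 more a 7mer (13.3%), beside 2.56% and 13.7% of all 9836 tested genes with a 3′UTR. The members' 3′UTRs were short, with a median of 452.5 bases against 1539.

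The 8mers were in NDUFA4 and NDUFAB1, shown with the site in capitals and together with 7mers of the other called members, COX6B2 and NDUFA3.
NDUFA4: ttaaatgtttACAGGGTAgtagaagcac
NDUFAB1: aaagtactgaACAGGGTAacctggaaac
COX6B2: gggtgagggcACAGGGTgtggactcaa
NDUFA3: ttttaaagagACAGGGTctcactctgt
The sites lie at chr7:10972144-10972151, chr16:23593325-23593332, chr19:55863589-55863595 (these 3 on the minus strand) and chr19:54610577-54610583 (plus strand) of GRCh37. Those of NDUFA4 and COX6B2 fall within the length of the transcript that was counted. For NDUFAB1 and NDUFA3, coding length plus position of the site in the 3′UTR exceeded the counted transcript's length (667 and 354 bases). Only lengths were compared, and whether the counted transcripts hold any of these sites was not tested. With miR-10b the median log2 fold change was -0.12 over the 2 members with an 8mer, 0.11 over the 8 with a 7mer and -0.013 over the 50 with neither. Over all tested genes the medians were -0.042 (252 genes, 50 called lower and 13 higher), -0.0045 (1344 genes, 171 lower and 98 higher) and 0.024 (7761 genes, 506 lower and 693 higher). The last class leaves out 479 genes whose best match was another 7mer form, CAGGGTA. No tested subunit gene had that form as its best match. With miR-10a the members' medians were 0.027, 0.022 and 0.0081, beside -0.021, 0.0026 and 0.015 over all tested genes. These medians are a description, and no difference between genes with and without a match was tested. NDUFA4 gave -0.080 ± 0.043 with miR-10b (adjusted p = 0.23) and 0.026 ± 0.043 with miR-10a. Over all members, the 8mer and the 7mer ACAGGGT gave 17 sites in 13 genes, 8 of them within the counted length.

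The promoters of the members were searched for motifs of factors long known for respiratory genes: CGCATGCG for NRF1, CCGGAAG for the ETS family that includes GABPA, and AAGATGGC for YY1, on both strands from 250 bases before to 50 after the start (RefSeq, GRCh38.p14). Of 69 subunit genes with an entry, 14.5% held the NRF1 motif, 27.5% the ETS motif and 15.9% the YY1 motif, and 47.8% held any. Among all 27305 promoters the shares were 2.19%, 10.7%, 3.03% and 14.7%. Among the 8654 tested genes with an entry they were 3.47%, 18.4%, 4.89% and 24.5%. For the 53 tested subunit genes with an entry they were 13.2%, 28.3%, 18.9% and 52.8%. The windows of called subunit genes that hold a motif are shown with the motif in capitals, read along the gene, so CTTCCGG is the ETS motif on the other strand.
COX4I1: gccttgctctCTTCCGGtcgcgggaca
COX8A: agctccagaaCTTCCGGccagcgcagc
NDUFB7: cctaaatgacCCGGAAGctgtgtctga
NDUFA3: cgcggagacaAAGATGGCtgcgagtaag
COX6B1: cctctctcagCTTCCGGctggtagtag
The capitals lie at chr16:85799697-85799703 (COX4I1), chr11:63974602-63974608 (COX8A), chr19:14572084-14572090 (NDUFB7, minus strand), chr19:54102876-54102883 (NDUFA3) and chr19:35648311-35648317 (COX6B1). COX6B1 is included because it is the widespread partner of COX6B2, whose window held none of the 3 motifs. The promoter of NDUFA6-AS1 held 1 YY1 motif. Its window overlaps that of NDUFA6, which also held 1, and whether both are the same site was not examined. Of the genes shown with the ETS motif, NDUFB7 rose and COX4I1 fell over both vectors, and a link between motif and fold change was not tested. A match describes letters only, and factor binding was not measured here.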

How the data were processed

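The authors sequenced RNA of the 12 cultures as single-end reads of 50 bases, mapped them to hg19 and deposited raw counts per RefSeq transcript, with the transcript length, in 1 file per sample. Per the labels' processing notes STAR, Subread and featureCounts were used, with versions and strand setting not given in the sources used here. For the RNA and libraries, the paper and the labels name different kits. The files listed 51799 rows for 48101 transcripts of 25718 genes, and 3698 repeated rows were dropped. Each gene was represented by its transcript of highest mean count.

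Counts were tested with edgeR 4.0.16 (quasi-likelihood test) in R 4.3.3 on the 11451 genes with a mean above 10 counts, with the total count as library size, 4 group means in one fit, Benjamini-Hochberg adjustment over all tested genes and a threshold of 0.05. SE is the log2 fold change divided by the square root of F. The comparisons were doxycycline against control with either vector, the average of both, their difference, and control against control. The code was tested on simulated data. An exact permutation of 3 against 3 samples cannot go below p = 0.10 and was not used. Alternatives were TMM factors, DESeq2 1.42.0, other count minimums, the replicate block, summed transcripts, thinning to equal totals, fits of single contrasts, narrower member lists and leaving out each library. Intervals and floors cover counting error or the spread between samples, not the counting of shared reads.

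Genes named are the members that passed, a set of core subunits and isoforms, and the members below the minimum. Other members are given by counts and ranges, and 1 item is not reported here. Members, lists and tests were chosen with earlier results of these data known. The 92 members matched RefSeq by accession, and 74 had a promoter entry. Sequences come from RefSeq and GENCODE 44 tables. Other steps used Python 3.11.15 with pandas 2.3.3 and scipy 1.17.1.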

Additional observations from a re-analysis of the deposited data

Results flagged for a closer look

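COX6B2 was the member whose doxycycline effect differed between the vectors by the test of the difference itself: the log2 fold change was 1.764 larger with miR-10b than with miR-10a, with an adjusted p of 0.025 in the edgeR fit. Counts were between 7 and 49 in all 12 libraries. The groups hold 3 samples each, so single samples were not tested as outliers.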

How the results depend on the processing

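Without any 1 library, members called ranged from 2 to 9 with miR-10b, from 1 to 4 for the average, from 0 to 3 for the difference between the vectors and from 1 to 2 between the controls, and stayed at 0 with miR-10a. Over all genes the ranges were 78 to 268 with miR-10a, 1216 to 1796 with miR-10b, 1203 to 1719 for the average, 140 to 340 for the difference and 1231 to 1992 between the controls. The lowest member count with miR-10b, 2, came without control replicate 3 (COX6B2 and NDUFA3). Without replicate 2 of the miR-10b doxycycline group 4 were called (ATP5I, COX4I1, COX6B2 and NDUFA6-AS1), and the genes called with miR-10a rose to 268.

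Fitting only the groups of the contrast gave 272 genes with miR-10a, and no filter on counts gave 343 genes for the difference. For the average, DESeq2 called 1 member. For the difference, DESeq2 and a mean count above 50 called 0 members, since COX6B2 got no adjusted p or was not tested. The difference called 3 members with no filter (COX6B2, COX8A and NDUFA11). TMM factors, DESeq2, no filter and thinning each called 1 member between the controls (COX8A), and COX5A lost its call. Whether the numbers of the replicates pair the samples was not settled. Same-numbered samples had correlations of deviations between -0.0319 and 0.0082, and samples of other numbers between -0.0225 and 0.0394. Much of these deviations is counting error, so a pairing could be missed. With the replicate block, members called were 0 with miR-10a, 7 with miR-10b (adding ATP5I), 3 for the average and 2 for the difference (adding COX8A), and 2 between the controls.

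None of the 12 called values of members changed sign in any alternative run. The members' median moved by less than 0.0336 in all. That is the SD between replicates of the median of the 40 members above 500 counts, a loose limit beside the medians themselves. Their sign did change with scaling. With miR-10b the median was 0.00077 by total count, -0.016 with TMM factors and -0.020 with DESeq2, beside 0.021, 0.0046 and 0.00029 over all genes tested. For the average it was 0.0018, -0.010 and -0.014, and with miR-10a 0.0087, 0.00073 and -0.0024. With TMM factors the share of higher genes among those called went from 55.2 to 43.8% for the average, and with DESeq2 to 38.4%. With miR-10b it went from 53.4 to 44.3% and 38.1%, and with miR-10a from 38.8 to 31.3% and 27.9%. Among members the split with miR-10b was 3 higher and 3 lower by total count, 3 and 4 with TMM and 1 and 3 with DESeq2.

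Low counts limit 29 members, which were not tested.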
